A study of Mus musculus with 6 samples.

Results

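The data set described here is the mRNA of 56 genes of ribosome biogenesis and the nucleolus, compared between growth plate cartilage of conditional Hnrnpk knockout mice and of controls. The members are the rows of the deposited expression table whose symbol is one of 56 named factors, a list drawn up with earlier results of these data known, and all 56 were among the 15803 genes of the table. The libraries labelled CKO (n = 3) came from E18.5 embryos with both copies of Hnrnpk floxed and the Col2a1-Cre transgene, and those labelled WT (n = 3) from littermates with both copies floxed and no Cre. Both genotypes therefore carry loxP sites around exons 4 to 7 of Hnrnpk, which encodes an RNA-binding protein of the nucleus. Col2a1-Cre recombines in chondrocytes, and the paper reports that the perichondrium also expressed Col2a1. Cells of a dissected growth plate in which the Cre was never active keep the gene. Values are CPM, a gene's share of its library's assigned reads scaled to 1e6, and the reads recovered from them numbered 1153871 to 1454094 per library, so that 1 read is worth 0.688 to 0.867 CPM. The log2 fold change (log2FC) of a gene is its mean log2(CPM + 1) in CKO minus that in WT, and it was called where limma's moderated test, adjusted by the Benjamini-Hochberg method over the 12155 genes tested, gave p under 0.05. The labels do not say whether the replicates were separate embryos, so p-values measure the spread between these samples.

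Ribosomes are built in the nucleolus. RNA polymerase I transcribes a long precursor rRNA from the ribosomal DNA repeats, small nucleolar ribonucleoproteins (snoRNPs) guide the chemical modification of that precursor, and the small subunit processome and the large subunit assembly factors fold, cut and export the 2 subunits. Many of the genes for these factors are textbook targets of the transcription factor Myc and are high in growing cells. In the growth plate, chondrocytes divide in columns, secrete large amounts of matrix protein and then enlarge, and all of these steps draw on ribosomes.

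Of the 56 genes, 48 had a higher mean in CKO and 8 a lower mean (85.7% higher, against 50.8% of all genes tested). Their median log2FC was 0.45, and that of all genes tested was 0.013. By the adjusted test, 7 genes rose in CKO, namely Nop2, Brix1, Utp4, Mybbp1a, Ddx18, Ebna1bp2 and Ddx10, which is 12.5% of the 56 against a background of 3.18% of all genes tested. None fell by that test, where 2.6% of all genes did, and 2 of the 56 were lower at an unadjusted p under 0.05, where 10.1% of all genes were. At the unadjusted p under 0.05, 22 were higher (39.3%, background 11.2%). The study's own criterion was an unadjusted p under 0.05 and a log2FC past 1 or -1. By it 3 of the 56 were higher (Nop2, Utp4 and Noc3l), a share close to the background of 5.3%, and 0 were lower (background 5.1%). In 28 of the 56 (50%, background 14.5%) the lowest CKO library lay above the highest WT library, and in 2 (Ltv1 and Noc2l, 3.57%, background 13.2%) the reverse held. The differences were modest in size: the mean CPM was at least 2 times higher in CKO in 3 genes (Nop2, Noc3l and Utp4). In such bulk samples, more cells of one type and more RNA per cell cannot be told apart.

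**Figure D1:**
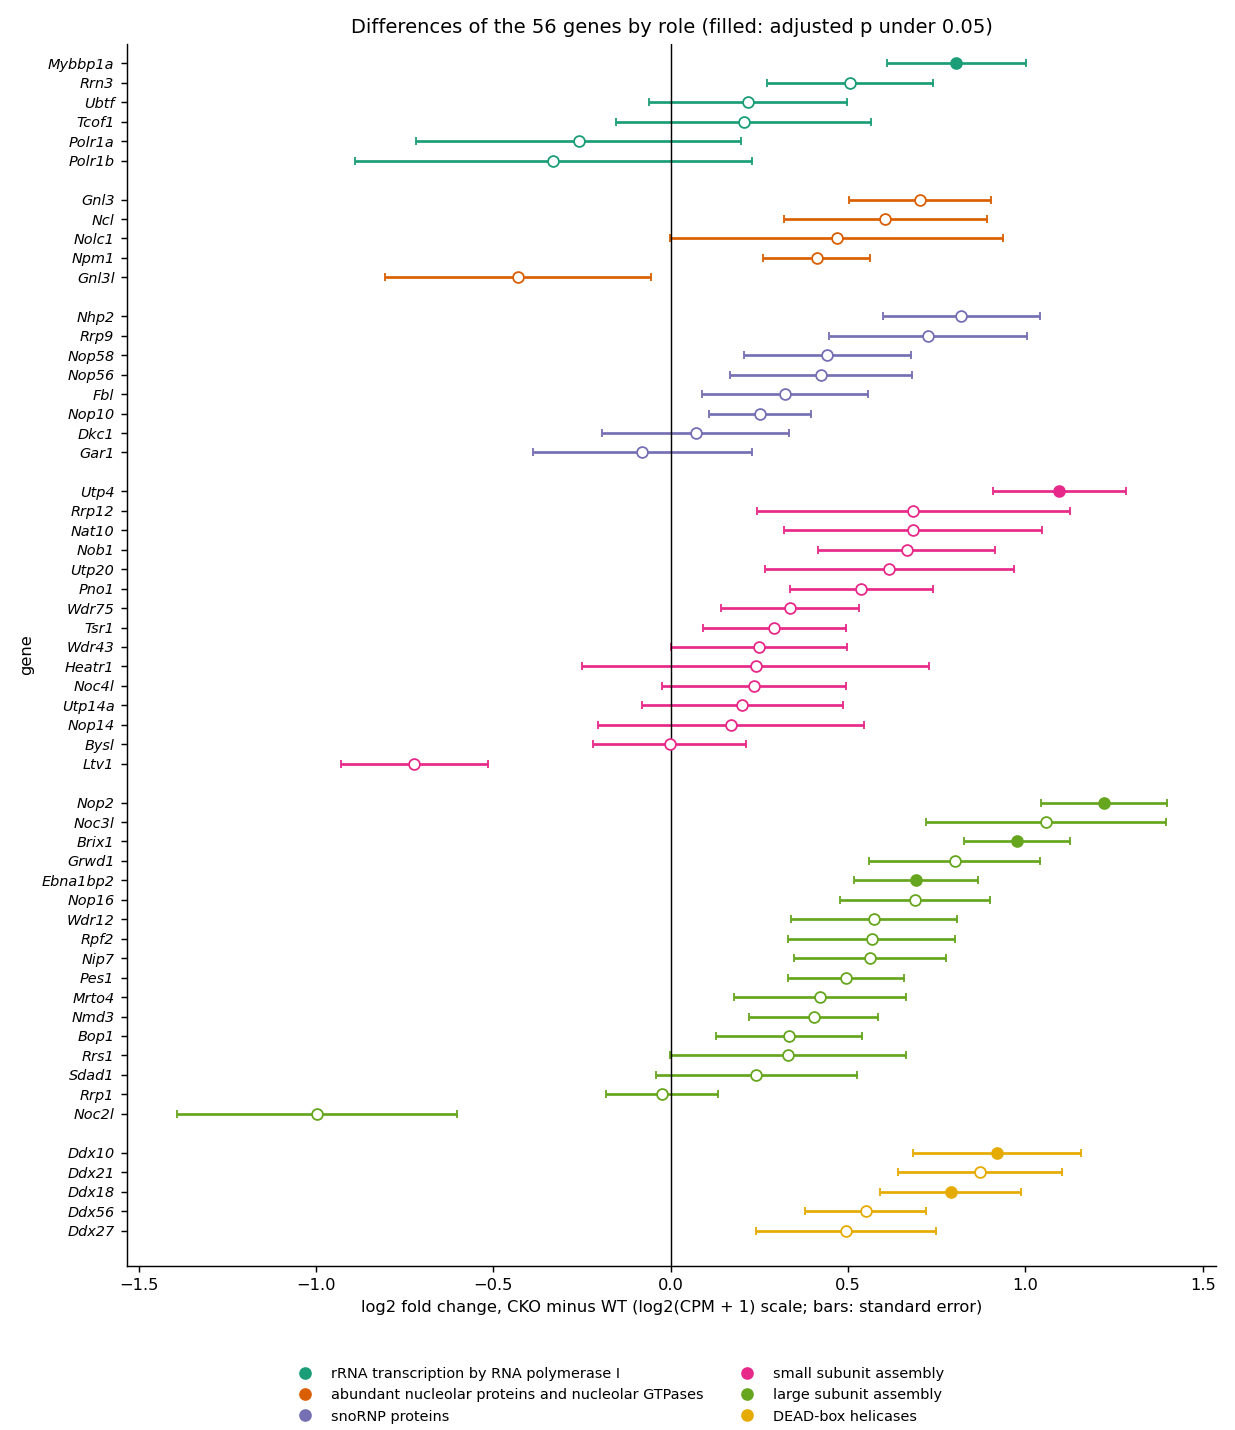
Log2FC (CKO minus WT, on the log2(CPM + 1) scale) of each of the 56 genes, grouped by role, with its standard error as a bar; filled points are the 7 genes past the adjusted threshold. Most points lie to the right of 0, from 1.22 for Nop2 down to -0.998 for Noc2l.

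Promoters are shown because the 56 genes share a role and most had a higher mean in CKO. Windows from 250 bases before to 50 after each RefSeq start site (GRCm38.p6) were held for 49 of the 56 genes. The 100 bases before the start site of the 3 genes with the smallest p are printed 5′ to 3′ on the gene's strand, with CACGTG, the E-box that Myc and its partner Max can bind, and CCGGAAG or its reverse complement, a core of ETS family sites, in capitals. The windows are chr6:125131783-125131882 (plus strand) for Nop2, chr15:10485938-10486037 (minus strand) for Brix1 and chr8:106893540-106893639 (plus strand) for Utp4.
Nop2: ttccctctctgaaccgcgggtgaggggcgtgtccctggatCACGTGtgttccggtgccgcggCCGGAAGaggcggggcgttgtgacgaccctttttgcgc
Brix1: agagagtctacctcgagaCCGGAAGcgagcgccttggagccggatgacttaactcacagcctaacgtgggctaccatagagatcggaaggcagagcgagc
Utp4: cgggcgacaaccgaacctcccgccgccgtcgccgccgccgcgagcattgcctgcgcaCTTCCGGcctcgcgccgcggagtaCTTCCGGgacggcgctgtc

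Utp4 also held an E-box just after its start site, as did Mybbp1a and Ltv1, the gene that was lower in CKO with the smallest p. These sites are shown with their flanks, E-box in capitals, at chr8:106893643-106893672 (plus strand) for Utp4, chr11:72441355-72441376 (plus strand) for Mybbp1a and chr10:13193092-13193121 (minus strand) for Ltv1.
Utp4: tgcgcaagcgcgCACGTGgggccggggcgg
Mybbp1a: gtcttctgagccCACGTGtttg
Ltv1: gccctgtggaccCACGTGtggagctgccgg

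An E-box stood in the window of 14 of the 49 genes (28.6%), against 11.9% of all genes tested that have a window and 19.0% of the other ribosome biogenesis genes described further on. CCGGAAG, read on both strands, stood in 18 of 49 (36.7%, against 20.9% and 44.0%). The GC box GGGCGG stood in 33 of 49 (67.3%, against 70.0% and 63.0%), and GCGCATGC, the core of the palindrome read by the factor Nrf1, in 3 of 49 (6.12%, against 6.24% and 9.0%). The median log2FC was 0.52 over the 14 genes with an E-box, of which 13 were higher in CKO and 3 were called. It was 0.47 over the 35 without one, of which 29 were higher and 4 were called. Over all genes tested, 50.8% were higher and 3.18% were called higher. These are matches of letters and not measured binding sites.

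The largest group held 17 genes of large subunit assembly. Its median log2FC was 0.56, and 15 of 17 genes had a higher mean in CKO (88.2%, against 50.8% of all genes tested). Of the 17, 11 had non-overlapping genotypes in that direction (64.7%, background 14.5%), and 3 were called (17.6%, background 3.18%). Nop2 (GRCm38 chromosome 6, 125131909 to 125144753), a methyltransferase of the large subunit rRNA and an old marker of proliferating cells, had 41.3, 38.3 and 42.2 CPM in WT 1 to 3 and 92.8, 93.1 and 102 CPM in CKO 1 to 3. The 2 genotypes lay far apart and the 3 libraries of each close together. The log2FC of Nop2 was 1.22 ± 0.18 (SE, n = 3 per genotype; adjusted p by limma = 0.00454). Brix1 (chromosome 15, 10474779-10485947) helps to recruit the 5S particle to the large subunit. It had 133, 155 and 133 CPM in WT and 266, 282 and 281 CPM in CKO. No CKO library came near the WT range, and the log2FC of Brix1 was 0.98 ± 0.15 (adjusted p by limma = 0.00549). Nop2 and Brix1 passed the adjusted threshold in all 15 alternative analyses.

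Ebna1bp2 (chromosome 4, 118620799-118627776) is an early assembly scaffold of the large subunit. It had 185, 197 and 164 CPM in WT and 276, 361 and 254 CPM in CKO, with CKO 2 the highest. Its log2FC was 0.69 ± 0.18 (adjusted p by limma = 0.0472), and it was called in 6 of 15 alternatives. Pes1 is a member with Bop1 and Wdr12 of the PeBoW complex that is needed for maturation of the large subunit rRNA. It had 120, 130 and 157 CPM in WT and 190, 196 and 185 CPM in CKO. The 3 CKO values of Pes1 were tight and above every WT value, while its adjusted p was 0.110 by limma's test. The other members of that complex, Bop1 and Wdr12, were also higher in every CKO library than in any WT library, with log2FC values of 0.33 and 0.57. Noc3l, a chaperone of the precursor particles, had 5.80, 5.25 and 6.76 CPM in WT and 9.63, 15.9 and 15.6 CPM in CKO, which was a log2FC of 1.06 ± 0.34 on few reads (23 in the WT libraries together and 54 in the CKO libraries; adjusted p by limma = 0.0994). Grwd1, Nop16, Nip7 and Rpf2 had log2FC values of 0.80, 0.69, 0.56 and 0.57 with unadjusted p under 0.05 and adjusted p of 0.0832, 0.0886, 0.163 and 0.197 by limma's test. Nmd3, the export adaptor of the large subunit, had 94.2, 87.8 and 75.2 CPM in WT and 99.0, 113 and 130 CPM in CKO. These values did not overlap either, and the log2FC of Nmd3 was 0.40 (adjusted p by limma = 0.237).

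Within the same group Noc2l, the partner of Noc3l, went the other way. It had 5.80, 8.25 and 9.29 CPM in WT and 4.81, 2.89 and 2.60 CPM in CKO. The lowest CKO library had no more than the 3 reads taken as the floor of counting. The log2FC of Noc2l was -0.998 ± 0.40 (adjusted p by limma = 0.177). Rrp1, an early factor at a high level, had 120, 136 and 120.0 CPM in WT and 118, 130 and 120 CPM in CKO. Its log2FC was -0.024 ± 0.16. Mrto4 and Sdad1 had overlapping genotypes, each with CKO 2 far above the other 5 libraries: Sdad1 had 35.5, 35.3 and 35.5 CPM in WT and 34.4, 67.1 and 32.1 CPM in CKO.

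**Figure D2:**
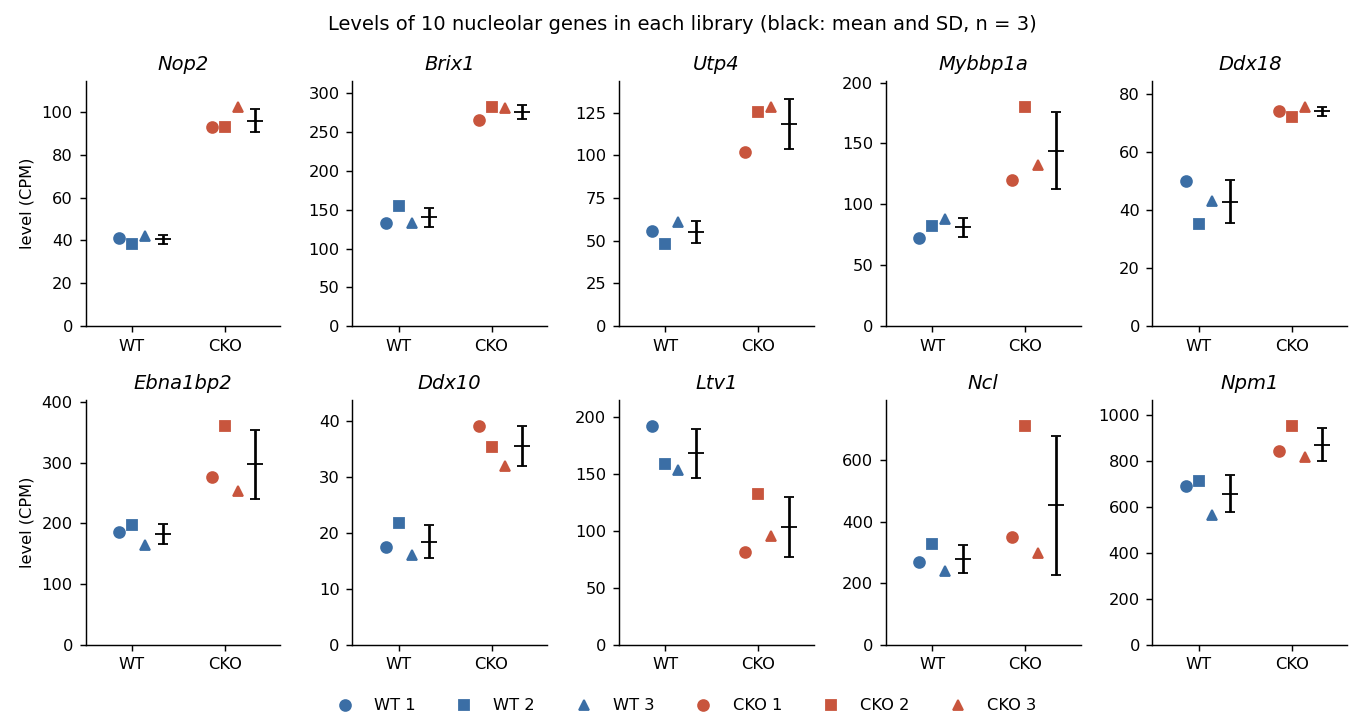
Level in CPM of 10 of the genes in each library, WT in blue and CKO in red, with replicates 1, 2 and 3 as circle, square and triangle, and mean and SD (n = 3) in black; every axis starts at 0. Nop2, Brix1, Ddx18 and Ddx10 are high in all 3 CKO libraries alike, while Ncl is high mainly in CKO 2 and Ltv1 is lower in CKO.

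The 5 DEAD-box helicases, enzymes that unwind RNA in the precursor particles, had the highest median of any group, 0.79, and all 5 had a higher mean in CKO. Ddx18 (chromosome 1, 121553835-121567989) stood at 50.01, 35.3 and 43.1 CPM in WT and 74.3, 72.2 and 75.4 CPM in CKO, a log2FC of 0.79 ± 0.20 (adjusted p by limma = 0.0448). Ddx10 (chromosome 9, 53098635-53248053) stood at 17.4, 21.8 and 16.1 CPM in WT and 39.2, 35.4 and 32.1 CPM in CKO, a log2FC of 0.92 ± 0.24 (adjusted p by limma = 0.0497). In both the CKO libraries stood together, well above WT. Ddx18 was called in 6 of 15 alternatives and Ddx10 in 5. Ddx21, which also binds RNA polymerase I transcripts, had 32.6, 31.5 and 41.4 CPM in WT and 50.9, 80.8 and 65.9 CPM in CKO (log2FC 0.87 ± 0.23, adjusted p by limma = 0.0537). Ddx56 had 73.2, 81.8 and 75.2 CPM in WT and 108, 105 and 127 CPM in CKO (log2FC 0.55 ± 0.17, adjusted p by limma = 0.0899). Ddx27, with a log2FC of 0.49, was the only helicase of the 5 whose genotypes overlapped.

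The 15 genes of small subunit assembly had a median log2FC of 0.29, with 13 of 15 higher in CKO. Utp4 (chromosome 8, 106893636-106923088), a subunit of the first processome complex to bind the precursor rRNA, had 55.8, 48.0 and 60.8 CPM in WT and 102, 126 and 128 CPM in CKO. No CKO library came near the WT range, and the log2FC was 1.10 ± 0.19 (adjusted p by limma = 0.00936). Utp4 was called in 13 of 15 alternatives. Other processome proteins had smaller values: Heatr1, Wdr43 and Wdr75 had log2FC values of 0.24, 0.25 and 0.34, and Utp14a and Utp20 of 0.20 and 0.62, all with adjusted p of 0.344 or more by limma's test. Nob1, the nuclease that makes the last cut of the small subunit rRNA, had 33.3, 40.5 and 27.9 CPM in WT. In CKO it had 40.6, 67.8 and 56.3 CPM, the lowest above WT 2 by less than the worth of 1 read. Its partner Pno1 was higher in every CKO library than in any WT library. The log2FC values of Nob1 and Pno1 were 0.66 and 0.54 (adjusted p by limma = 0.156 and 0.155). Bysl had 44.9, 51.0 and 68.4 CPM in WT and 54.3, 59.2 and 48.5 CPM in CKO (log2FC -0.0029 ± 0.22).

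Ltv1, a factor that travels with the small subunit precursor to the cytoplasm, went the other way. It had 192, 158 and 153 CPM in WT and 81.2, 132 and 95.3 CPM in CKO, with no overlap and with CKO 2 nearest to WT. The log2FC of Ltv1 was -0.72 ± 0.21 (adjusted p by limma = 0.0709, n = 3 per genotype). Without CKO 2 it fell by 0.92 on the log2 scale and passed the threshold (adjusted p by limma = 0.00674). Its adjusted p over the 15 alternatives, by limma, edgeR or DESeq2, was between 4.41e-05 and 0.242. The lowest came from leaving out WT 3 and CKO 2 together, an analysis chosen after seeing the data.

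Among the 6 genes of rRNA transcription, Mybbp1a (chromosome 11, 72441355-72451768), a nucleolar binding protein of Myb and of p53 that acts on RNA polymerase I, was the one that rose. It had 72.5, 82.5 and 87.9 CPM in WT and 120, 180 and 133 CPM in CKO, and all 3 CKO libraries were above every WT library. The log2FC of Mybbp1a was 0.81 ± 0.20 (adjusted p by limma = 0.0407), and it was called in 9 of 15 alternatives. Rrn3, the initiation factor that carries growth signals to RNA polymerase I, had 26.8, 22.5 and 18.6 CPM in WT and 33.01, 32.5 and 31.2 CPM in CKO (log2FC 0.51 ± 0.23, adjusted p by limma = 0.244). The 2 large subunits of the polymerase, Polr1a and Polr1b, had lower means in CKO, 4.71 against 6.31 CPM and 1.77 against 2.62 CPM. Both rested on few reads: Polr1b had between 1 and 5 reads in each library, so that a difference in it was not detectable at this depth. Ubtf, which opens the ribosomal DNA for transcription, and Tcof1 had log2FC values of 0.22 and 0.21 with overlapping genotypes. In both the highest library was CKO 2.

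The abundant nucleolar proteins and the nucleolar GTPases were higher in 4 of 5 cases, and none was called. Npm1, a chaperone that gives the nucleolus its granular layer, had 691, 713 and 563 CPM in WT and 842, 953 and 816 CPM in CKO. Those values did not overlap, and the log2FC of Npm1 was 0.41 ± 0.15 (adjusted p by limma = 0.146). Ncl, which binds ribosomal DNA chromatin and precursor rRNA, had 268, 328 and 238 CPM in WT and 350, 712 and 297 CPM in CKO. CKO 2 was 2.20 times the mean of the other 2 CKO libraries and CKO 3 lay within the WT range, and the log2FC of Ncl was 0.61 ± 0.29 (adjusted p by limma = 0.257). Gnl3, or nucleostemin, had 63.1, 70.5 and 91.2 CPM in WT and 108, 143 and 115 CPM in CKO (log2FC 0.70 ± 0.20, adjusted p by limma = 0.0703). Its paralog Gnl3l had a mean of 5.94 CPM in CKO against 8.50 CPM in WT, with overlapping libraries (log2FC -0.43 ± 0.38).

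The 8 snoRNP proteins had a median log2FC of 0.37. They form 2 kinds of particle. In the H/ACA kind, which converts uridine to pseudouridine, Nhp2 had 220, 205 and 143 CPM in WT and 291, 434 and 282 CPM in CKO, a log2FC of 0.82 ± 0.22 that narrowly missed the threshold (adjusted p by limma = 0.0569). Nop10 had 484, 452 and 549 CPM in WT and 559, 625 and 582 CPM in CKO (log2FC 0.25 ± 0.14), while Dkc1, the enzyme itself, and Gar1 had log2FC values of 0.071 ± 0.26 and -0.079 ± 0.31. The 4 proteins of this particle thus had unequal differences in mRNA, and the differences between them were not tested. In the C/D kind, which adds methyl groups to ribose, Fbl, the methyltransferase, Nop56 and Nop58 had log2FC values of 0.32, 0.42 and 0.44. Each of the 3 had overlapping genotypes, with CKO 2 the highest library. Rrp9, a protein of the related U3 particle, had 29.0, 27.0 and 22.0 CPM in WT and 34.4, 65.0 and 36.4 CPM in CKO (log2FC 0.73 ± 0.28, adjusted p by limma = 0.166).

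The library labelled CKO 2 stood apart in these genes. It held the highest of the 6 values in 42 of the 56 genes (75.0%, where it was highest in 22.4% of all genes tested). The median log2 difference of the 56 genes from the WT mean was 0.24 in CKO 1, 0.89 in CKO 2 and 0.25 in CKO 3. The summed level of the 56 genes was 4312, 4477 and 4237 CPM in WT 1 to 3, and 5446, 7431 and 5471 CPM in CKO 1 to 3, so that all 3 CKO libraries were above WT and CKO 2 far above the other 2. In 25 of the 56 genes (44.6%, against 23.8% of all genes tested) CKO 2 was at least 1.5 times the mean of CKO 1 and CKO 3. CKO 2 also differed from CKO 1 and CKO 3 across all genes (chi-square per degree of freedom of the reads 14.2 and 13.1, against 1.29 between CKO 1 and CKO 3), and WT 3 from WT 1 and WT 2 (9.43 and 8.65, against 2.06).

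This spread in CKO was not shared by all roles. The ratio of CKO 2 to the mean of the other 2 CKO libraries had a median of 1.70 over the snoRNP proteins, 1.597 over the rRNA transcription genes, 1.497 over small subunit assembly, 1.34 over large subunit assembly, 1.28 over the abundant proteins and GTPases, and 0.993 over the DEAD-box helicases. It was at least 1.5 in 7 of the 8 snoRNP proteins and in 0 of the 5 helicases. Genes with a near-even rise had ratios close to 1, such as Nop2 at 0.955, Brix1 at 1.03, Ddx18 at 0.964 and Utp4 at 1.09, and among the genes at 1.5 or more the ratio reached 1.91 for Nop56, 2.20 for Ncl and 3.12 for Nolc1, which was measured at a low level.

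**Figure D3:**
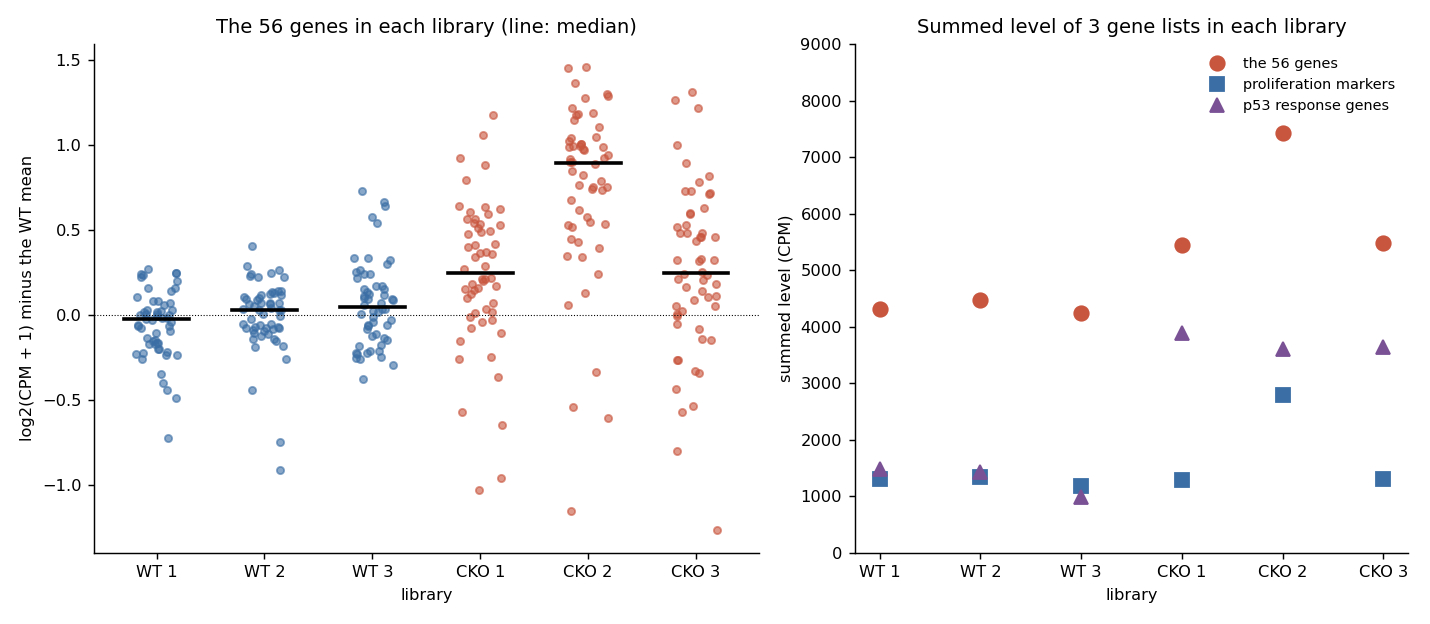
Left, log2(CPM + 1) of each of the 56 genes minus its WT mean in each library, with the median of the 56 as a black line; right, the summed CPM of the 56 genes, of 24 proliferation markers and of 15 p53 response genes in each library. The 56 genes and the proliferation markers are highest in CKO 2, while the p53 response genes sum to 3602 to 3887 CPM in the 3 CKO libraries.

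Left without CKO 2, 39 of the 56 genes had a higher mean in CKO and 17 a lower one, with a median log2FC of 0.29 (0.0034 over all genes tested). By the same adjusted test 8 were then higher (background 5.74%), the earlier 7 and Ddx56. In the other direction 1 was called, Ltv1, where 606 of the 12055 genes tested were called lower. The rRNA transcription group moved most, from a median of 0.21 to -0.086, while small subunit assembly went from 0.29 to 0.26 and the helicases from 0.79 to 0.71. The log2FC values without CKO 2 were 1.24 for Nop2, 0.96 for Brix1, 1.05 for Utp4, 0.92 for Ddx10 and 0.81 for Ddx18. They were 0.23 for Ncl, 0.11 for Nop56, 0.17 for Nop58 and -0.20 for Tcof1.

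Markers of other states and cell types also differed between libraries. The summed level of 24 proliferation markers was 1304, 1340 and 1189 CPM in WT and 1283, 2787 and 1305 CPM in CKO, so it was above WT in CKO 2 alone. Of these markers 1 was called, Rrm2, a subunit of ribonucleotide reductase, with 151, 141 and 114 CPM in WT and 336, 617 and 329 CPM in CKO (log2FC 1.597, adjusted p by limma = 0.00532). Rrm2 is counted in the sums and adds more CPM to each CKO sum than to any WT sum. With Rrm2 taken off, the sums of CKO 1 and CKO 3 lie below every WT sum, and that of CKO 2 stays above. Mki67 had 18.1, 26.3 and 16.1 CPM in WT and 7.56, 28.9 and 8.67 CPM in CKO, and Pcna had 88.4, 92.3 and 108 CPM in WT and 97.0, 182 and 84.1 CPM in CKO. The summed level of 11 osteoblast markers was 588 CPM in CKO 2, against 1643 and 1720 CPM in CKO 1 and CKO 3 and 961 to 1472 CPM in WT. The summed level of 15 skeletal muscle markers was 309 CPM in CKO 2 and 313 CPM in WT 3, against 69.8 to 146 CPM in the other 4 libraries, and erythroid and endothelial markers summed to at most 28.9 and 71.5 CPM in any library. In WT 3 the structural muscle genes were high (Myl1 67.6 and Mylpf 80.3 CPM), whereas in CKO 2 the muscle transcription factor gene Myog made up 179 CPM of the sum and Myl1 and Mylpf had 10.1 and 27.4 CPM. Macrophage and osteoclast markers summed to 169 to 405 CPM in WT, where Lyz2 alone had 270.3 CPM in WT 3, and to 305 to 336 CPM in CKO. Of the 11 tested, 10 had a higher mean in CKO, with a median log2FC of 0.68. Cd68, a lysosomal protein of macrophages, was the 1 called, with 8.70, 6.75 and 11.8 CPM in WT and 76.3, 46.9 and 76.3 CPM in CKO (log2FC 2.74, adjusted p by limma = 0.00114). Epidermal markers summed to 22.0 to 43.5 CPM in WT and 74.3 to 120 CPM in CKO, and of the 3 tested Sbsn rose (log2FC 3.78, adjusted p by limma = 0.00466). Of the 9 osteoblast markers tested, 6 had a higher mean in CKO and 3 a lower one, with a median log2FC of 0.46. By the adjusted test Col1a2 fell (log2FC -1.09, adjusted p by limma = 0.0191) and none rose. By the study's criterion 2 were higher and 1 was lower (background 5.3% and 5.1%). The part of these states and cells in the values of the 56 genes was not tested.

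Chondrocyte markers were present in all 6 libraries and differed between genotypes. Of 15 chondrocyte markers 11 fell in CKO and none rose, with a median log2FC of -1.57, and their summed level was 26851 to 34529 CPM in WT and 6636 to 7156 CPM in CKO. The 5 with the smallest p were Matn1, Comp, Cnmd, Col9a1 and Col9a2, matrix and cartilage proteins with log2FC values of -3.76, -3.08, -2.68, -2.50 and -2.57. CPM is a share of all reads, and the part of this loss of abundant transcripts in the values of the 56 genes was not tested. With CPM rescaled by TMM factors, the median log2FC of the 56 genes was 0.41 and that of all genes was -0.027, and 4 of the 56 were called higher in place of 7. Hnrnpk itself, the targeted gene, had 842, 955 and 944 CPM in WT and 759, 949.9 and 780.0 CPM in CKO (log2FC -0.14 ± 0.15, adjusted p by limma = 0.622), so its total reads did not separate the genotypes, and they do not measure the deleted exons alone.

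The rest of the pathway was counted in the same way. Of 117 other ribosome biogenesis genes tested, 99 had a higher mean in CKO (84.6%, against 50.8% of all genes tested), with a median log2FC of 0.35. By the adjusted test 8 were called higher (6.84%, background 3.18%) and 0 lower (background 2.6%). At an unadjusted p under 0.05, 33 were higher (28.2%, background 11.2%) and 0 were lower (background 10.1%). Sbds, which frees the new large subunit for translation, had 81.9, 107 and 86.2 CPM in WT and 229.7, 180 and 220 CPM in CKO (log2FC 1.19, adjusted p by limma = 0.00510). Ftsj3, an rRNA methyltransferase, had a log2FC of 1.17 and Gtpbp4, a GTPase of the large subunit, of 0.66. On the small subunit side, Rrp36, Fcf1, Dnttip2 and Dcaf13 had log2FC values of 1.09, 0.87, 0.74 and 0.67, and Rpp30, a subunit of RNase P and RNase MRP, of 0.82. All 8 were higher in every CKO library than in any WT library. By group, 4 of 43 small subunit genes (9.3%) and 3 of 40 large subunit genes (7.5%) were called, against 3.18% of all genes tested. The same held for 1 of 21 exonuclease and RNase MRP genes (4.76%) and 0 of 13 RNA polymerase I genes. Of 19 snoRNA host genes, 1 was in the table and it was too low to be tested.

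**Figure D4:**
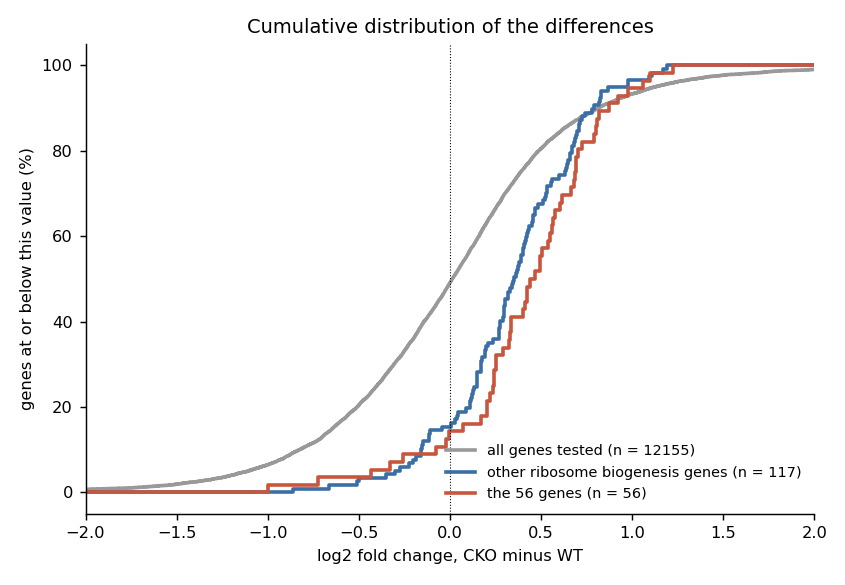
Cumulative share of genes (%) by log2FC (CKO minus WT) for the 56 genes, the 117 other ribosome biogenesis genes and all 12155 genes tested. Both pathway curves lie to the right of the grey one over most of the axis: 44.6% of the 56 genes, 32.5% of the others and 19.5% of all genes were above 0.5.

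None of 10 tested genes of the Myc network was called, with 0 higher and 1 lower at an unadjusted p under 0.05, and their median log2FC was 0.048. Myc had 101, 112 and 75.2 CPM in WT and 77.7, 165 and 82.3 CPM in CKO (log2FC 0.10 ± 0.29, adjusted p by limma = 0.873), again with CKO 2 the highest. Mxd4, an antagonist of Myc at the same sites, had 24.6, 20.3 and 27.9 CPM in WT and 15.8, 12.3 and 9.53 CPM in CKO (log2FC -0.91 ± 0.29, adjusted p by limma = 0.0935).

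Free ribosomal proteins L5 and L11 bind Mdm2 when ribosome assembly is disturbed, which is a textbook route to p53. Levels of mRNA do not measure free protein, and this route was not tested. Rpl5 had 716, 710 and 725 CPM in WT and 804, 1013 and 742 CPM in CKO (log2FC 0.24 ± 0.15, adjusted p by limma = 0.408), and Rpl11 a log2FC of 0.12 ± 0.15. Of 15 genes of the p53 response, 10 rose and none fell, with a median log2FC of 1.63. Cdkn1a, the p21 cell cycle inhibitor, had 475, 455 and 251 CPM in WT and 1918, 1452 and 1635 CPM in CKO (log2FC 2.13, adjusted p by limma = 0.00130). Perp, Mdm2, Btg2 and Ccng1 had log2FC values of 3.05, 1.75, 1.89 and 1.63. The summed level of the list, to which Cdkn1a gave the most reads, was 982 to 1476 CPM in WT and 3887, 3602 and 3636 CPM in CKO 1 to 3, and 6 of its 15 genes were highest in CKO 2.

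Levels of different genes were compared per length, as CPM per kb of the longest principal transcript of GENCODE M21. In WT the order began with Nop10 (446 ± 44.7 CPM per kb, SD, n = 3), Npm1 (402 ± 49.5) and Nhp2 (181 ± 39.1), and the first 2 did not differ beyond their spread. In CKO Npm1 (533 ± 44.4) and Nop10 (531 ± 30.2) came ahead of Nhp2 (322 ± 81.9). The gap between Nop10 and Npm1 rested on the length used: per kb of all annotated exons, Nop10 had 446 and Npm1 246 CPM in WT. The lowest in WT was Polr1b at 0.656 CPM per kb, after Polr1a and Utp20. The median of the 56 genes was 16.0 CPM per kb in WT and 22.4 in CKO. Nop2 moved from rank 29 to rank 21 and Ltv1 from rank 7 to rank 18. Of the 56 genes 18 had a near-identical copy elsewhere in the annotation, among them Npm1 with 9 copies and Ddx18 with 3, all pseudogenes, so their reads could be split or discarded in counting. The exons of 4 genes (Ncl, Gnl3, Nop56 and Nop58) overlap other genes on the same strand, among them small nucleolar RNA genes in Ncl, Gnl3 and Nop56, and 20 genes overlap an exon of the other strand, Mybbp1a with Spns2 among them. The library kit keeps the strand, but whether counting used it is not given in the sources used here.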

How the data were processed

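RNA was isolated from growth plate cartilage and 6 stranded mRNA libraries were sequenced. The submitters' processing notes name cutadapt 2.5, HISAT2 and featureCounts 1.6.3, in no stated order of use; the genome build and annotation are not given in the sources used here. The authors deposited 1 table of CPM per gene and library. Each value was a whole number of reads to within 0.001 reads (100% of values), so reads and depth were recovered. A floor of counting was set at 3 reads, or 2.06 to 2.60 CPM.

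The 12155 of 15803 genes that averaged 1 CPM or more were tested on log2(CPM + 1) with limma 3.58.1 (R 4.3.3), with a mean-variance trend and no covariate, and p-values were adjusted by the Benjamini-Hochberg method over all genes tested. Fold changes on this scale understate low genes. Alternatives were a pseudocount of 0.1, no filter, a filter at 10 CPM, TMM-scaled CPM, a replicate block, edgeR 4.0.16 quasi-likelihood and DESeq2 1.42.0 on recovered reads, and leaving out each library.

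The 56 genes and all lists were chosen with earlier results of these data known. Named in full were called genes, those with unadjusted p under 0.05 and the 2 most abundant of each role. Other genes were named with values to complete a complex, or as examples picked by no fixed rule, such as Sdad1, Mrto4, Rrp1 and Bysl. Of other lists, called genes (at most 5 a list) and fixed examples were named; Mxd4, Rpl5, Rpl11, Lyz2, Myog, Myl1 and Mylpf were added after their values were seen. Coordinates are from GENCODE M21 (GRCm38); promoter windows are RefSeq's (GRCm38.p6). A near-identical copy is a gene with at least 90% identity over 300 bases or more.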

Additional observations from a re-analysis of the deposited data

How the results depend on the processing

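Directions did not turn for any of the 24 of the 56 genes with an unadjusted p under 0.05, in 15 alternatives each but for Noc2l (12) and Noc3l (14), which some filters removed. Of the 56 genes, 7 were called higher; the number, with the share of all genes called higher in brackets, was 4 with a pseudocount of 0.1 (2.65%), 4 with TMM-scaled CPM (2.71%), 6 with no filter (2.46%), 6 by edgeR with TMM (4.85%), 6 by DESeq2 (2.18%), 8 by edgeR with RLE (5.09%) and 8 with a filter at 10 CPM (5.62%). Leaving out 1 library gave 2 to 8: 3 without WT 1 (1.13%), 2 without WT 2 (1.1%), 4 without WT 3 (2.66%), 3 without CKO 1 (1.09%), 8 without CKO 2 (5.74%) and 2 without CKO 3 (1.01%), and Utp4 was not called without WT 2 or without CKO 3. Without WT 3 and CKO 2 together, an analysis chosen after seeing the data, 14 were higher, where 11% of all genes were. There 19 of the other pathway genes rose and 3 fell, where 1098 of the 11911 genes tested were called lower. Among those other genes 8 were called higher (1 to 11 on leaving out 1 library, with 1 each without WT 1, WT 2, CKO 1 and CKO 3) and 0 lower (0 to 1). Members called lower numbered 0 (0 to 1, Ltv1 without CKO 2, and 1 without both libraries). By the study's criterion 3 members were higher (2 to 5, with 5 without CKO 1) and 0 lower (0 to 1; 1 with a pseudocount of 0.1 and 1 with TMM-scaled CPM). Genotypes did not overlap in the lower direction in 2 members, where the share over all genes tested was 13.2%. The number was 2 to 4 on leaving out 1 library, 1 at 10 CPM, 1 by either edgeR fit and 4 without both libraries. The median log2 fold change of the members was 0.27 to 0.55.

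The replicate numbers did not pair the samples: the correlations of same-numbered libraries' deviations were 0.038, -0.131 and -0.103. With the replicate block 3 members (Brix1, Nop2 and Utp4) and 2 other pathway genes were called, with 1.85% of all genes called higher. At 1153871 to 1454094 reads per library, 47 of the 56 genes had at least 10 reads in every library, and 2 had 3 reads or fewer in at least 1.

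Some genes did change sign, none of them called with all 6 libraries. On leaving out 1 library, or WT 3 and CKO 2 together, their log2FC ranged as follows: Gar1 -0.46 to 0.21, Dkc1 -0.16 to 0.29, Heatr1 -0.20 to 0.63, Rrp1 -0.0938 to 0.0356, Polr1a -0.63 to 0.25, Polr1b -0.79 to 0.00268, Bysl -0.13 to 0.17, Myc -0.40 to 0.30, Ubtf -0.18 to 0.45, Tcof1 -0.24 to 0.53, Nolc1 -0.0283 to 0.83, Utp14a -0.00585 to 0.34, Nop14 -0.19 to 0.43, Noc4l -0.0237 to 0.43, Sdad1 -0.0906 to 0.43, Pcna -0.0865 to 0.47, Wdr43 -0.0532 to 0.38, Rpl11 -0.0532 to 0.19, Lyz2 -0.15 to 1.08, Myl1 -1.11 to 0.24 and Mylpf -0.64 to 0.57. The log2FC of Gar1 was 0.00025 by edgeR with RLE and 0.0029 by DESeq2, and that of Lyz2 was -0.21 by edgeR with TMM or RLE and -0.20 by DESeq2. Over 88 single genes and the 15 alternatives, 80 values no longer passed the threshold, 19 newly passed it, 44 changed sign, 1158 did neither and 19 were not run because a filter removed the gene.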
